A study of Homo sapiens with 6 samples.

Results

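Cytokinesis is the step that splits a dividing cell after its chromosomes have separated. The 10 genes described here encode parts of its machinery: ANLN, CIT and MYH10 of the contractile ring, ECT2, RACGAP1 and PRC1 of the central spindle, and AURKB, INCENP, BIRC5 and CDCA8 of the chromosomal passenger complex. They were chosen by name, with earlier results of these data known and with ANLN picked from the authors' own comparison, so their choice rests on the same libraries. All 10 were found, of 31999 genes listed in all.

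The RNA came from HEL, a human erythroleukemia cell line, transduced with a lentiviral hairpin against TMIGD2 (shTMIGD2, 3 libraries) or with a control hairpin (shCtrl, 3 libraries). TMIGD2 is a cell surface receptor of the CD28 family. Both groups are the same cell line and carry a hairpin vector, and the labels do not say which of the study's hairpins against TMIGD2 was sequenced, so an effect of the hairpin sequence and an effect of TMIGD2 loss cannot be told apart in this design. The question of the series is what TMIGD2 knockdown does to gene expression in HEL cells. The values used here do not answer it: the deposited table holds the authors' own comparison, which is not used here, and beside it 1 mean level per gene over both groups together. What follows is therefore the level of the cytokinesis genes in HEL cells over shCtrl and shTMIGD2 libraries pooled, with no spread between libraries, no difference between the groups and no test. Each value is the authors' mean log2 CPM, the base 2 logarithm of CPM, a gene's count scaled to a common library total, and its depth and error are unknown.

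During anaphase the central spindle, a bundle of antiparallel microtubules, marks the cell's middle. There the centralspindlin complex recruits ECT2, a guanine nucleotide exchange factor that activates the GTPase RhoA, and RhoA in turn brings about a ring of actin and non-muscle myosin II that constricts the membrane. The chromosomal passenger complex carries the kinase Aurora B to the midzone and is needed for both steps. Megakaryocytes, the platelet-forming cells whose features HEL cells share in part, become polyploid by endomitosis, in which the cell enters mitosis but does not complete cytokinesis. Lower activity of RhoA at the furrow and loss of the MYH10 myosin are known parts of that programme.

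HEL cells expressed most markers of both lineages. All 10 erythroid markers reached a log2 CPM of at least 0, from 2.46 for the embryonic globin HBZ to 11.09 for the transferrin receptor TFRC. The same cut was met by 14000 of the 31999 genes listed. Of 9 megakaryocyte markers with a value, 8 were at 0 or more, with the integrin subunit ITGA2B highest at 10.54 and VWF lowest at -2.71. Among lymphoid and monocyte markers, lysozyme (LYZ) was the highest at 4.40. TMIGD2 itself had a mean level of 4.08 and its ligand HHLA2 of -3.66, which is close to the lowest level listed, -3.76. The paper knocked down HHLA2 in HEL cells and judged knockdown by flow cytometry, a measure of protein that this RNA level does not replace. Since the TMIGD2 value pools both groups, it is no check of the knockdown.

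Of the 10 cytokinesis genes, 9 lay high among all genes listed and PRC1 lay far below the others. The 9 had mean log2 CPM values from 5.53 to 8.36, which put them between the 85.0th and the 98.5th percentile of all genes listed. Among the 14000 genes at a mean level of at least 0, the 9 ran lower, from the 65.8th percentile for ECT2 to the 96.5th for MYH10. PRC1 had 1.35, at the 62.6th percentile of all genes listed and the 14.5th of those at 0 or more. It lay 4.18 below the next member on the log2 scale. The median of the 10 was 6.57, against -0.97 over all genes.

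**Figure D1:**
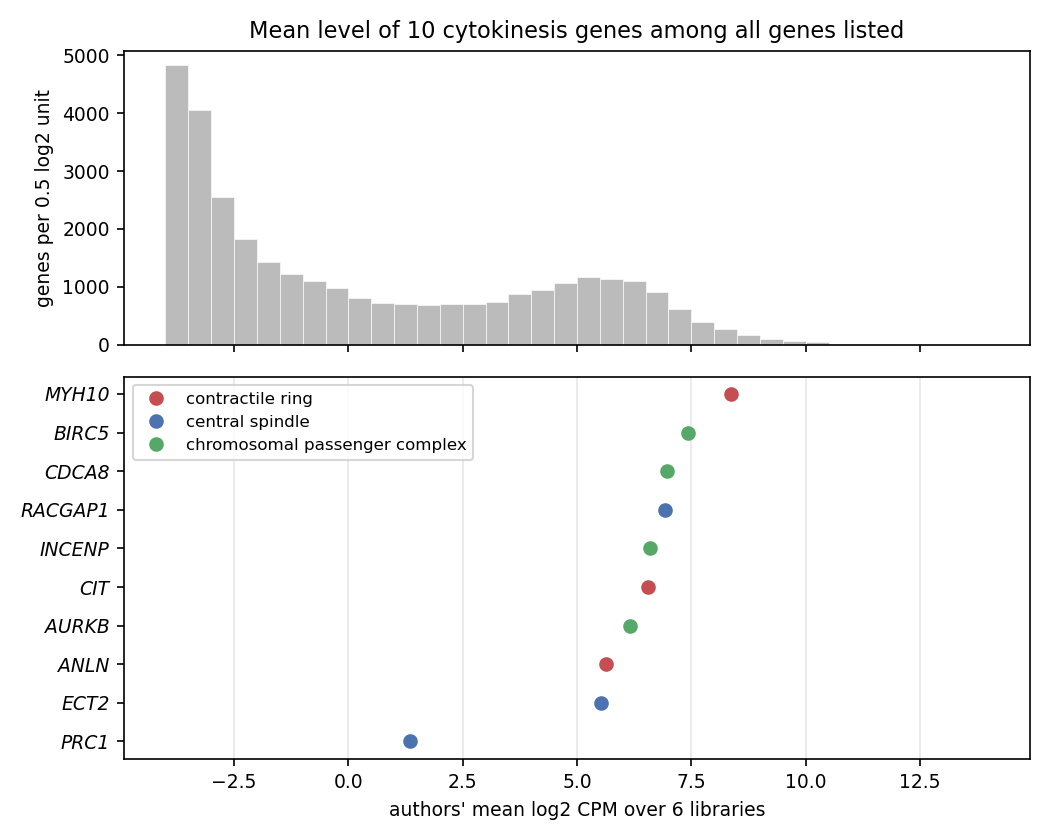
Top, the number of genes per 0.5 log2 unit of the authors' mean log2 CPM over 6 libraries, for all 31999 genes listed. Bottom, the same quantity on the same axis for each of the 10 cytokinesis genes, coloured by role; 9 of them sit between 5.53 and 8.36 and PRC1 at 1.35. Each point is 1 mean over both groups, so no error bar can be drawn.

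In the contractile ring, MYH10 had the highest CPM of the 10 genes, before division by transcript length. MYH10 encodes the heavy chain of non-muscle myosin IIB. Its gene, at chromosome 17 positions 8474207 to 8631376, is on the minus strand in GENCODE 44 for GRCh38, the source of all positions below. Its mean log2 CPM was 8.36, or 329.7 CPM, at rank 494 of all genes. ANLN encodes anillin, the scaffold that ties actin, myosin, RhoA and septins together at the furrow, and lies at chromosome 7 positions 36389821 to 36453791 (plus strand). Its level was 5.63, or 49.6 CPM, at rank 4564 of all genes. CIT encodes citron kinase, which acts late in cytokinesis at the midbody, and lies at chromosome 12 positions 119685791 to 119877320 (minus strand). Its level was 6.54, or 93.2 CPM.

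Counts grow with the length of a transcript, so genes are compared with each other per kb of their canonical transcript. On that scale MYH10 stood at 42.8 CPM per kb, 4.08 times ANLN at 10.5 and 4.01 times CIT at 10.7. ANLN and CIT were thus within a ratio of 1.02 of each other per kb, while CIT had 1.88 times the CPM of ANLN over a longer transcript of 8736 bases against 4731. Which of these levels differ beyond the spread between libraries cannot be told from pooled means.

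The myosin II heavy chains were unequal in HEL cells. MYH9, which encodes the non-muscle myosin IIA heavy chain, was the highest of them at a mean log2 CPM of 9.70 and 111.5 CPM per kb, 2.61 times MYH10. MYH14, the non-muscle myosin IIC gene, was at -2.29, and MYH11, the smooth muscle gene, at -0.77. These lay at the 38.4th and the 51.5th percentile of all genes listed. No fold is given against them, because low levels depend most on the small count added before taking logarithms, whose size is not given in the sources used here. Over the whole contractile ring list, which also holds actin, myosin light chain, RhoA, ROCK kinase and formin genes, 15 of 16 genes were at 0 or more. ACTB was highest at 12.21 and MYH14 lowest. ROCK1 and ROCK2, which encode kinases related to CIT, were at 17.1 and 17.0 CPM per kb, and the formin DIAPH3 at 7.79.

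In the central spindle, RACGAP1 stood highest of the 3 members, also per kb. RACGAP1 encodes the GTPase-activating subunit of centralspindlin and lies at chromosome 12 positions 49976923 to 50033136 (minus strand). Its mean log2 CPM was 6.91, or 120.6 CPM, and its level per kb was 38.8. KIF23, the kinesin that pairs with it in centralspindlin, had 26.5 CPM per kb, so RACGAP1 stood at 1.46 times its partner. ECT2, at chromosome 3 positions 172750682 to 172821474 (plus strand), was at 5.53 and 11.2 CPM per kb. RACGAP1, which binds ECT2 at the midzone, thus had 3.47 times the level of ECT2 per kb. The related gene ECT2L was at -1.90, at the 42.4th percentile. CHN1 and CHN2, the chimaerin genes that share the Rac GAP domain family with RACGAP1, were at 3.50 and 1.80.

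PRC1 was the exception among these genes. It encodes the protein that crosslinks antiparallel microtubules and so holds the central spindle together, and it lies at chromosome 15 positions 90966040 to 90995629 (minus strand). Its mean level was 1.35 on the log2 scale, 2.55 CPM, and 0.831 CPM per kb. The 8 other genes of the central spindle list, the kinesins and PLK1 among them, ranged from 5.53 to 6.96. KIF4A, the kinesin that PRC1 binds, had 15.5 CPM per kb, or 18.7 times PRC1. ECT2, the next lowest of the list, had 13.5 times the level of PRC1 per kb.

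The annotation of PRC1 also differed from that of the other members. In GENCODE 44, 57.6% of its exonic bases lie within exons of an unnamed protein-coding gene on the same strand (ENSG00000284946.1, chromosome 15, 90966190 to 91022566), whose transcripts are marked as readthrough. A further gene, PRC1-AS1, covers 34.3% of its exonic bases from the other strand and was at -2.11. For the 9 other members, at most 0.318% of exonic bases were shared with a gene on the same strand, a microRNA gene within CIT. The highest share with a gene on the other strand was 3.05%, in RACGAP1. The study's methods name a RefSeq annotation for the counting, not GENCODE 44, while 8031 names in the table are of the clone style that GENCODE and Ensembl use, and none of these could be matched here to the unnamed gene. Which gene models overlapped PRC1 in the counting is therefore not known here. How fragments lying in more than 1 gene were counted, and with which strand setting, is not given in the sources used here, so the PRC1 value is uncertain and the part of the shared exons in it was not tested.

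The same property was looked at over all protein-coding genes matched by name, 16329 in number. Of these, 259 genes (1.59%) shared 50% or more of their exonic bases with another gene on the same strand, and their median level was -1.50. The 2471 genes that shared fewer had a median of 3.61, and the 13599 genes that shared none had 3.75. A level at or below that of PRC1 was found in 78.0% of the first set, in 31.7% of the second and in 36.5% of the third. Whether shared exons lower a counted level, for PRC1 or in general, was not tested. Among the 46 genes of the 4 cytokinesis lists, 2 shared 50% or more, PRC1 and CHMP4A, and both were under 2 on the log2 scale. The other 4 genes under 2, MYL9, AURKC, CHMP4C and MYH14, shared no exonic base on the same strand. Outside these lists, the erythroid marker HBG2 shared 55.6% and was at 7.25, and the megakaryocyte marker PF4 shared 52.1% and was at 5.83.

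**Figure D2:**
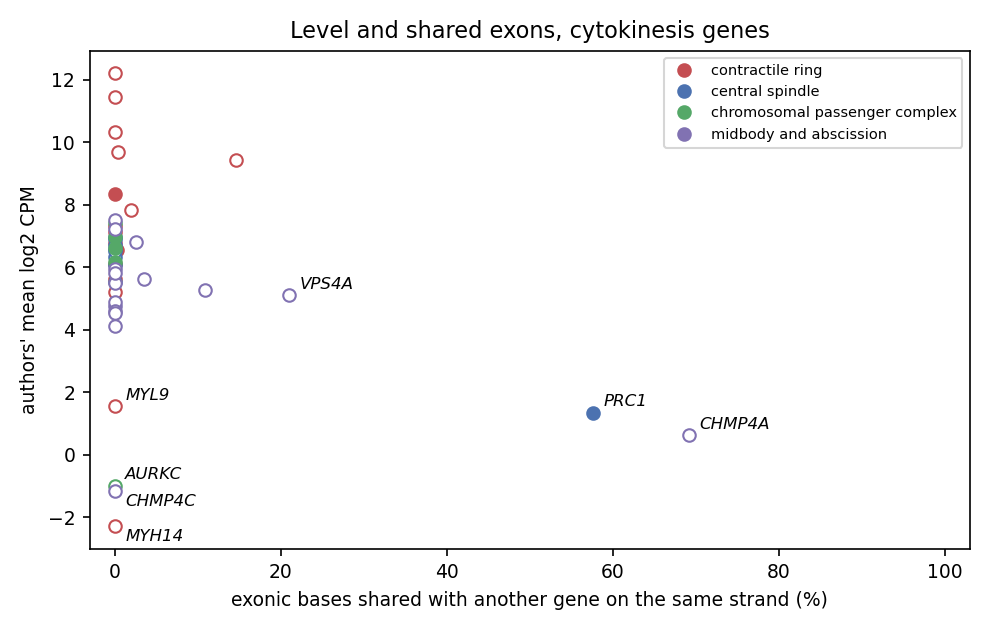
The authors' mean log2 CPM of each of 46 cytokinesis genes (y axis) against the percentage of its exonic bases that lie in exons of another gene on the same strand in GENCODE 44 (x axis). Filled points are the 10 genes described and colours give the list. PRC1 (57.6%) and CHMP4A (69.2%) stand apart on the right, both under 2, and 4 genes with no shared base also lie under 2.

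Among the 10 genes, those of the chromosomal passenger complex had the narrowest range of the 3 roles, 2.84-fold per kb against 4.08-fold in the contractile ring and 46.7-fold in the central spindle, where PRC1 sets it. Per kb of coding sequence this order turned, with 11.5-fold from BIRC5 to INCENP against 3.72-fold from MYH10 to ANLN in the ring. The 4 genes of the chromosomal passenger complex ranged from 6.17 to 7.43 in mean log2 CPM. Each lay at or above the 89.7th percentile of all genes listed. Among genes at 0 or more the lowest of them by log2 CPM, AURKB, was at the 76.4th percentile. BIRC5 encodes survivin, which brings the complex to the centromere by binding a phosphorylated histone, and lies at chromosome 17 positions 78214186 to 78225636 (plus strand). Its level was 7.43, or 173.0 CPM, the most of the 4 before division by length. CDCA8 encodes borealin, which joins survivin and INCENP, and lies at chromosome 1 positions 37692481 to 37709719 (plus strand). Its level was 6.97, or 125.5 CPM. INCENP encodes the scaffold that binds and activates the kinase, and lies at chromosome 11 positions 62123998 to 62153169 (plus strand). It was at 6.61, or 97.4 CPM. AURKB encodes Aurora B, the kinase itself, and lies at chromosome 17 positions 8204733 to 8210600 (minus strand). It was at 6.17, or 71.8 CPM, the least of the 4 before division by length.

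Division by transcript length changed that order. Per kb, BIRC5 was at 67.2 CPM, AURKB at 57.8, CDCA8 at 52.9 and INCENP at 23.7. BIRC5 stood at 1.16 times AURKB and 1.27 times CDCA8, and at 2.84 times INCENP, the lowest of the 4. The 4 proteins work as 1 complex, so the levels are set side by side here, but RNA levels per kb are no measure of the proteins' ratio. The BIRC5 value also depends on the length used, because its coding part is only 426 of 2574 bases. Per kb of coding sequence BIRC5 was 5.84 times AURKB.

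Aurora B has close relatives. AURKA, which encodes the kinase of the spindle poles, was at 6.30 in mean log2 CPM and 38.8 CPM per kb, against 57.8 for AURKB. The ratio of AURKA to AURKB was 0.671 per kb, 0.937 per kb of coding sequence and 1.10 by CPM, so which of them was higher depended on the scale. AURKC, which can replace Aurora B in the complex and is known mainly from germ cells, was at -0.99. Of the genes that share the BIR domain with BIRC5, BIRC2 was at 64.1 CPM, XIAP at 34.8, NAIP at 2.09 and BIRC3 at 1.77. BIRC5 had 3.95 times the level of BIRC2 per kb and 16.5 times that of XIAP. These ratios were 2.70 and 4.98 by CPM, and 11.8 and 17.4 per kb of coding sequence. Over the 11 genes of the list of relatives, which also repeats ANLN and CIT, 9 were at 0 or more and the median was 3.50.

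The step after furrowing is abscission, the cut at the midbody by the ESCRT-III filaments. Of 16 genes listed for it, 15 were at 0 or more. Their median log2 CPM was 5.20, against 6.57 for the 10 cytokinesis genes, neither divided by length. PDCD6IP, which encodes ALIX, had the highest log2 CPM, 7.52. CEP55, the midbody protein that recruits ALIX and TSG101, was at 4.75. Among the CHMP4 genes, CHMP4B stood at 7.22, CHMP4A at 0.63 and CHMP4C, the abscission checkpoint subunit, at -1.17, the lowest of the list. Per kb of transcript the highest of the list was CHMP4B at 93.2 CPM, with PDCD6IP at 31.1 and CEP55 at 10.2.

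Ordered per kb, the 10 genes ran from BIRC5, AURKB and CDCA8 at 52.9 to 67.2, through MYH10 and RACGAP1 at 42.8 and 38.8 and INCENP at 23.7, to ECT2, CIT and ANLN between 10.5 and 11.2 and PRC1 at 0.831 CPM per kb. Without PRC1 the range was 6.42-fold. The furrow scaffold ANLN and the RhoA activator ECT2 were thus the lowest of the members after PRC1 by CPM, and among the lowest 4 per kb.

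**Figure D3:**
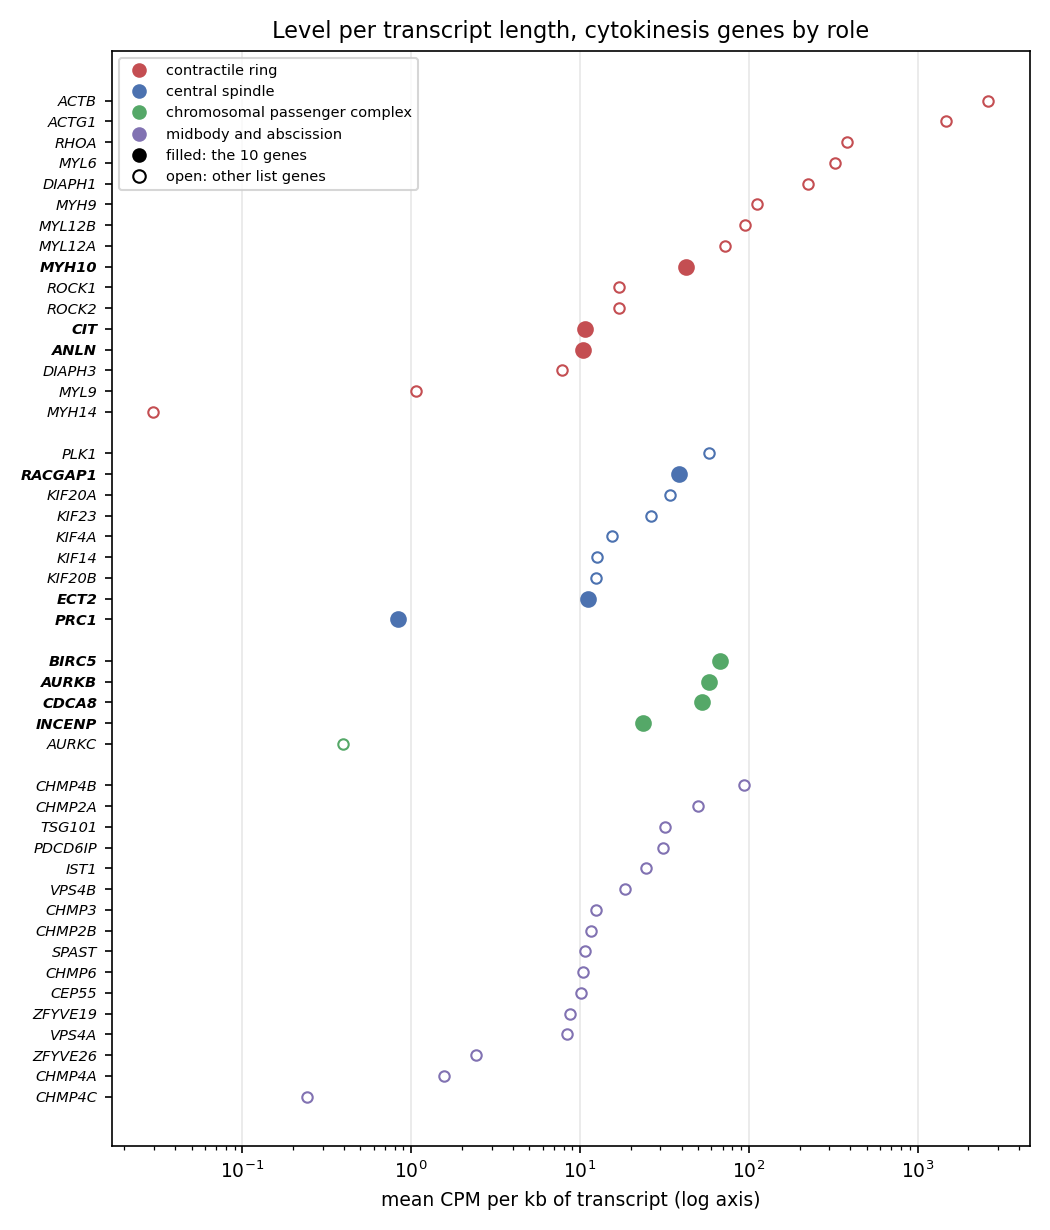
Mean CPM per kb of canonical transcript, on a log axis, for 46 cytokinesis genes in 4 lists, each sorted from high to low. Filled points and bold names are the 10 genes described; PRC1 lies at 0.831 while the other 9 lie between 10.5 and 67.2. Points are means over both groups and have no error bar.

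By position, 3 of the 10 genes are on chromosome 17, and AURKB and MYH10 lie on the same strand there with 263606 bases between them. RACGAP1 and CIT are both on chromosome 12. The other 5 are each on a chromosome of their own.

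Genes that peak in G2 and mitosis are known to carry a cell cycle genes homology region (CHR) in their promoters, a short element bound by the DREAM and MuvB complexes, often downstream of CCAAT boxes bound by NF-Y. The promoter windows of RefSeq (GRCh38.p14), from 250 bases before the start to 50 after it, were searched for these letters, and 8 of the 10 genes had a window, all but RACGAP1 and BIRC5. The CHR was searched as TTTGAA or TTCGAA, on both strands. It was found in 6 of the 8 genes, ANLN, ECT2, PRC1, CIT, INCENP and CDCA8, and every site read TTTGAA. Of all 35116 windows, 16.4% held it. Of the 9572 genes with a window and a mean level of at least 0, 15.5% did. In AURKB and MYH10 these letters were not in the window.

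The matched letters are fixed by the search, so the place, strand and flanking bases are what can differ. The 30 bases around the CHR match nearest to the start are shown for these 6 genes. They are written 5′ to 3′ on the gene's strand, and capitals mark the match, as TTTGAA or its reverse complement TTCAAA.
ANLN, chr7:36389827-36389856, plus strand: gcgctgaaaTTCAAATTTGAAcggctgcag
ECT2, chr3:172750746-172750775, plus strand: agagcagcttagttTTTGAAtcggttgtgg
PRC1, chr15:90994538-90994567, minus strand: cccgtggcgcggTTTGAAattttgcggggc
CIT, chr12:119877293-119877322, minus strand: ccgttcctcgggTTCAAAcgcggcggcggg
INCENP, chr11:62123989-62124018, plus strand: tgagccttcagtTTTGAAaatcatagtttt
CDCA8, chr1:37692481-37692510, plus strand: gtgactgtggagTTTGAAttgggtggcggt

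In ANLN 2 matches lay end to end, the first on the reverse strand from position -26 and the second on the forward strand from -20, where -1 is the base before the RefSeq start. The match began at -23 in CDCA8, at -20 in PRC1 and at -10 in INCENP, all on the forward strand. In CIT the nearest match began at 11 and in ECT2 at 35, both after the start. ECT2 and CIT held another farther upstream, at -115 and -208. In ANLN, PRC1, INCENP and CDCA8 the sites thus lay within the 26 bases before the start. Most of the bases shown fall in exons of GENCODE 44, from 21 of 30 in INCENP to all 30 in ANLN, ECT2, PRC1 and CDCA8. Bases before the RefSeq start are exonic there where GENCODE has a transcript that begins farther upstream.

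The CCAAT box was searched as CCAAT on both strands and was found in 7 of the 8 genes, all but ANLN. Of all windows, 34.6% held it, as did 43.6% of the genes at a mean level of at least 0. INCENP, CDCA8, CIT, ECT2 and MYH10 had 3 each in their first window. In CDCA8 the CCAAT match nearest the start shares 1 base with the CHR match. For E2F sites the word TTTGGCG was searched on both strands, together with the variant TTTCGCG and with the further words TTCCCGC as well as TTGGCGC. Of the 8 genes 1 had a match, ECT2, at -5, where it overlaps a CCAAT match, against 11.4% of all windows and 21.8% of the genes at 0 or more. A match of letters is a description of the sequence and no evidence of a bound factor, and PRC1, with the lowest level, had both a CHR and a CCAAT match in its window.

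**Figure D4:**
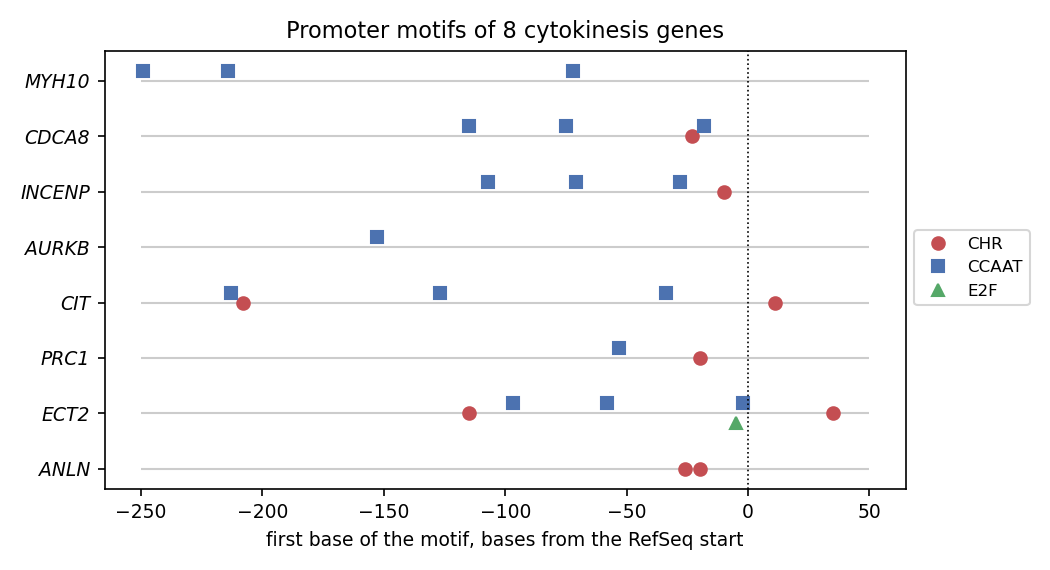
Position of the first base of each motif match in the RefSeq promoter window of 8 cytokinesis genes, in bases from the annotated start (dotted line). Circles are CHR, squares CCAAT and triangles E2F matches on either strand; for ECT2 and AURKB, which have 2 windows each, the first is drawn. In ANLN, PRC1, INCENP and CDCA8 the CHR matches lie within 26 bases before the start.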

How the data were processed

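Poly(A) RNA libraries of 3 shCtrl and 3 shTMIGD2 HEL libraries, labelled as biological replicates, were grouped by their labels. Per the submitters' processing notes and the paper's methods, the authors aligned reads to hg38 with STAR 2.6.1b and counted fragments per gene of a RefSeq annotation with HTSeq 0.6.1. The authors' deposited table holds for each of 31999 genes a mean log2 CPM over all libraries, and beside it the authors' own comparison of the groups (log2 fold change, F, p-value and adjusted p-value). These 4 columns were not used. The prior count behind the mean log2 CPM is not given in the sources used here. The table has no value per library, so the count test planned for the groups was not run, and depth, spread and the difference between groups are unknown here.

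From the deposited log2 values, CPM, ranks, percentiles (ties counted equally above and below) and CPM per kb were computed with Python 3.11.15 and pandas 2.3.3. Positions, lengths of canonical transcripts (MANE Select where given) and exons come from GENCODE 44 (GRCh38), and 22805 names matched 1 gene by symbol. 24 names had been turned into dates, and the lists used here hold no septin gene. Shared exons are the merged exonic bases of a gene that lie in exons of any other gene. Promoter windows of 300 bases come from RefSeq (GRCh38.p14), and a gene counts as holding a motif when any of its windows does. The search and the percentiles were tested on simulated data.

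The members and lists were chosen with earlier results of these data known. All 10 members are named, and from each list the complex partners and paralogs of a member and the highest and lowest gene. CEP55, CHMP4B and DIAPH3 fall outside that rule and were named after their values were seen. CHMP4A, MYL9, HBG2 and PF4 also fall outside it and were named for their level or their shared exons. The lymphoid and monocyte list is not reported here in full.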

Additional observations from a re-analysis of the deposited data

How the results depend on the processing

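No paired analysis was possible because the table used here has no values per library. For the same reason leaving out libraries, DESeq2 size factors and other filters on counts were not run, and no protein table was used, so the planned protein identities were not analysed here. The median percentile of the 10 genes was 92.3 among all genes, 82.3 among genes with a mean level of at least 0 (log2) and 85.3 among genes with a RefSeq protein. The range of the 9 genes without PRC1 was 6.42-fold per kb of transcript and 7.12-fold with no division by length. It was 27.6-fold per kb of coding sequence, an alternative chosen after seeing the data, in which the short coding part of BIRC5 raises its value. The place in the order differed from that per kb for 8 of the 10 genes with no division by length and for 4 with coding length. PRC1 was the lowest on each of these scales. In the 150 bases nearest the start, 6 genes held a CHR (7.37% of all windows), 6 a CCAAT box (21.3%) and 1 an E2F site (6.13%). Counted per gene, as for the members, 6.85%, 29.4% and 11.9% of genes at a mean level of at least 0 held them. TTTGAA alone in 300 bases also gave 6 genes (15.2% of all windows, and 13.6% of genes at a mean level of at least 0). The means pool both groups, and a gene that differs between them has a mean that stands for neither.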
